A study of Homo sapiens with 12 samples.

Results

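DNA methylation and Polycomb repression are the main means by which a cell keeps genes silent through division. This account describes 47 listed genes of that machinery, of which 43 had a probe set with a single gene symbol and were measured, among 18417 such genes on the array. BMI1, RNF2, CBX8 and BAP1 were not analysed here. Each gene was represented by its probe set with the highest mean over the 12 arrays, and all 43 passed the filter on dim probe sets, each on 12 of 12 arrays.

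The data are mRNA levels from 12 Affymetrix arrays of A549, a human lung adenocarcinoma line, and HTB56, another established human lung cancer line. A0R and H0R are the unselected lines, with 0 rounds of selection, and A3R and H3R are their derivatives after 3 rounds of selection in mice, chosen for growth of lung nodules from cells injected into a vein. Each of the 4 groups had 3 arrays, and all were untreated with regard to 5-azacytidine, a drug that depletes DNA methyltransferases. The labels do not say whether a selected line is a clone or a pool, nor whether the 3 replicates were separate cultures, and p-values then reflect the scatter among these arrays, which may be technical. In such bulk samples fewer cells of a type and less RNA per cell cannot be told apart.

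In this machinery DNMT3A and DNMT3B lay down methyl groups on CpG sites, and DNMT1 copies them after replication with the help of UHRF1 and the chromatin remodeller HELLS. TET enzymes oxidise the mark, TDG and MBD4 are glycosylases that cut out altered bases at CpG sites, and several MBD family proteins and ZBTB33 bind methylated DNA. Polycomb repressive complex 2 (PRC2, with EZH1 or EZH2, EED and SUZ12) methylates histone H3. Polycomb repressive complex 1 (PRC1) joins a RING protein to 1 PCGF subunit, and its canonical forms add a CBX reader and a PHC subunit. KDM6A and KDM6B take the PRC2 mark off again.

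The upstream DNA of 3 members is shown because these genes had the smallest adjusted p for a change that differed between the lines. Each sequence is the 250 bases before the first start listed for the gene in RefSeq (GRCh38.p14), read 5′ to 3′ on the gene's strand. A gene may have other starts, and which start these cells use was not measured. Capitals mark a CCAAT box (CCAAT or ATTGG) and an E2F word (TTTGGCGC, TTTCCCGC, TTTCGCGC, TTTGCCGC or their reverse complements), E2F being the factor family of S phase genes.
HELLS, chr10:94545538-94545787, plus strand: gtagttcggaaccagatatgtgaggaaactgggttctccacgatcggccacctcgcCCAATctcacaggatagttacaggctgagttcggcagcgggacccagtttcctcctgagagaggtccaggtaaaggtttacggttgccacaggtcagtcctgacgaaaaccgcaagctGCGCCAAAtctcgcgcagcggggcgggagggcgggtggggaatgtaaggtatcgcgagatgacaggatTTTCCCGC
MBD4, chr3:129439949-129440198, minus strand: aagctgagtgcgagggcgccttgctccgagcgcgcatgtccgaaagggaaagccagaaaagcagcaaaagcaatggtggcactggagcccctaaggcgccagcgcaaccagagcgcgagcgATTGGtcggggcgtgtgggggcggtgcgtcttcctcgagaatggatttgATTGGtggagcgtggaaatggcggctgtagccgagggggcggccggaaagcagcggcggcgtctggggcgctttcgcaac
DNMT3B, chr20:32779602-32779851, plus strand: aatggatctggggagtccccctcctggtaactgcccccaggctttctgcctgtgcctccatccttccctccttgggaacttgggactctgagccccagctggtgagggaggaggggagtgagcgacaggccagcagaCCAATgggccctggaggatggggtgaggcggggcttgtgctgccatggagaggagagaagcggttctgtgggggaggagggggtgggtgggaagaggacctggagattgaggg

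The HELLS window held 2 E2F words, which start 76 and 8 bases before the listed start, and 18 CpG sites. The MBD4 window held 26 CpG sites and the DNMT3B window 3, where the median over all 27305 promoters was 11 and over the 43 listed members with an entry 23. Such a count holds for the listed start only and not for every promoter of the gene. Those 43 are not the 43 measured, as they include BMI1 and RNF2 and lack DNMT3L and CBX2. An E2F word stood in 4 of the 43 with an entry (HELLS, UHRF1, SUZ12 and EZH1, 9.3%) and in 2.79% of all promoters. A CCAAT box stood in 19 of 43 (44.2%) and in 33% of all, and no E2F word overlapped one in the 3 sequences shown. A match to such letters is a description and does not show that a factor binds.

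All values below are log2 signals made by RMA, in which a difference of 1 is a doubling, and array medians ranged from 5.55 to 5.67. Genes with a limma adjusted p under 0.05 (Benjamini-Hochberg over the 16939 tested) are termed called. Across probe sets, arrays within a group had correlations of 0.988 to 0.995. All 8 markers fixed for A549 (keratins, CDH1, EPCAM and aldo-keto reductase genes among them) were called lower in H0R than in A0R. VIM, FN1 and ZEB1, 3 of the 4 mesenchymal markers, were called higher there, and CDH2 lower.

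The comparison of A3R with A0R asks whether selection of A549 changed this machinery. DNMT3B, the methyltransferase of new methylation in embryonic and many cancer cells, was the 1 member of 43 called. It read 6.29, 6.30 and 6.17 on the 3 A0R arrays and 5.44, 5.79 and 5.58 on the 3 A3R arrays. All selected arrays lay below all unselected ones, and the fall was 0.65 on the log2 scale (1.57-fold, SE 0.11, limma adjusted p = 0.00488). A single call in 43 is 2.33% of the members, close to the 1.75% of all genes called in A549 (0.809% lower and 0.945% higher), so the count says nothing particular about the machinery. The arrays of A0R and A3R did not overlap for 4 members, and for 12.7% of all genes. The median change over the members was -0.01, and over all genes -0.01. Of the 4 mesenchymal markers only CDH2 was called in A3R, with a rise of 1.90 (SE 0.21, adjusted p = 0.000154). VIM, FN1 and ZEB1 changed by -0.07, -0.28 and 0.05 and were not called. Of the 8 A549 markers only CDH1 was called, with a fall of 0.85. The part of these marker changes in the fall of DNMT3B was not tested. The DNMT3B call held under all 21 alternative settings, leaving out each of the 12 arrays among them, with adjusted p from 0.002 to 0.0352. Some settings could not move the fall itself. DNMT3B has 1 probe set, so averaging left its values as they were, and leaving out an HTB56 array left both A549 means unchanged.

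The other writers of DNA methylation were close to level in A549. DNMT1 read 9.03, 8.95 and 8.76 in A0R and 9.06, 8.96 and 8.74 in A3R, a difference of 0.01 with a 95% interval of -0.23 to 0.24. DNMT3A read 6.76, 6.86 and 6.88 in A0R and 6.62, 6.91 and 6.68 in A3R (-0.10, interval -0.32 to 0.12). UHRF1 recruits DNMT1 to sites methylated on 1 strand. UHRF1 read 9.26, 9.17 and 8.95 in A0R and 9.00, 8.93 and 8.72 in A3R. It was lower in 3 of 3 same-numbered pairs but not called (-0.24, adjusted p = 0.546). TET1 read 4.45, 4.50 and 4.67 in A0R and 4.36, 4.43 and 4.51 in A3R. TET2 read 7.28, 7.15 and 6.83 in A0R and 7.16, 6.81 and 6.41 in A3R. TET3 read 6.81, 7.18 and 6.73 in A0R and 6.65, 6.80 and 6.37 in A3R. The 3 TET genes had changes of -0.11 (TET1), -0.29 (TET2) and -0.30 (TET3), each also lower in 3 of 3 pairs. None was called, with adjusted p between 0.502 and 0.849. JARID2, MTF2, PCGF1, PCGF5, CBX6 and CBX7 were lower in 3 of 3 pairs too, and SUZ12, RBBP7, CBX2 and ASXL1 higher. The share of all genes with such agreement of pairs was not counted. EZH2 read 9.15, 9.05 and 9.37 in A0R and 9.23, 9.32 and 9.34 in A3R. EED read 8.37, 8.42 and 8.80 in A0R and 8.33, 8.52 and 8.65 in A3R. SUZ12 read 10.73, 10.58 and 10.89 in A0R and 10.98, 10.84 and 10.90 in A3R. The groups overlapped for these 3 core subunits. Among PRC2 genes the changes ran from -0.23 (JARID2) to 0.19 (RBBP4), and those of EZH2, EED and SUZ12 were 0.11, -0.03 and 0.17. In the family of RING partners and KDM2B they ran from -0.30 (PCGF1) to 0.02, among CBX and PHC genes from -0.19 (CBX7) to 0.12, and among KDM6A, KDM6B and ASXL1 from -0.04 to 0.07.

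The members that changed in HTB56, described next, were not called in A549. TDG read 6.04, 6.12 and 6.39 in A0R and 6.16, 6.05 and 6.08 in A3R. MBD4 read 8.22, 8.18 and 8.42 in A0R and 8.34, 8.28 and 8.30 in A3R. RBBP4 read 10.51, 10.11 and 10.80 in A0R and 10.60, 10.63 and 10.77 in A3R. For these 3 genes the A549 groups overlapped. PCGF1 read 8.11, 7.78 and 7.77 in A0R and 7.63, 7.39 and 7.73 in A3R. PCGF3 read 6.98, 6.83 and 6.94 in A0R and 7.04, 6.90 and 6.87 in A3R. KDM2B read 7.12, 6.79 and 6.97 in A0R and 6.99, 6.92 and 6.91 in A3R. Only PCGF1 of these 3 lay wholly lower after selection. CBX2 read 7.21, 7.14 and 7.18 in A0R and 7.30, 7.33 and 7.27 in A3R. PHC1 read 7.53, 7.39 and 7.51 in A0R and 7.70, 7.55 and 7.32 in A3R. KDM6B read 6.77, 6.72 and 6.59 in A0R and 6.71, 6.82 and 6.62 in A3R. CBX2 lay wholly higher after selection, while PHC1 and KDM6B overlapped.

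**Figure D1:**
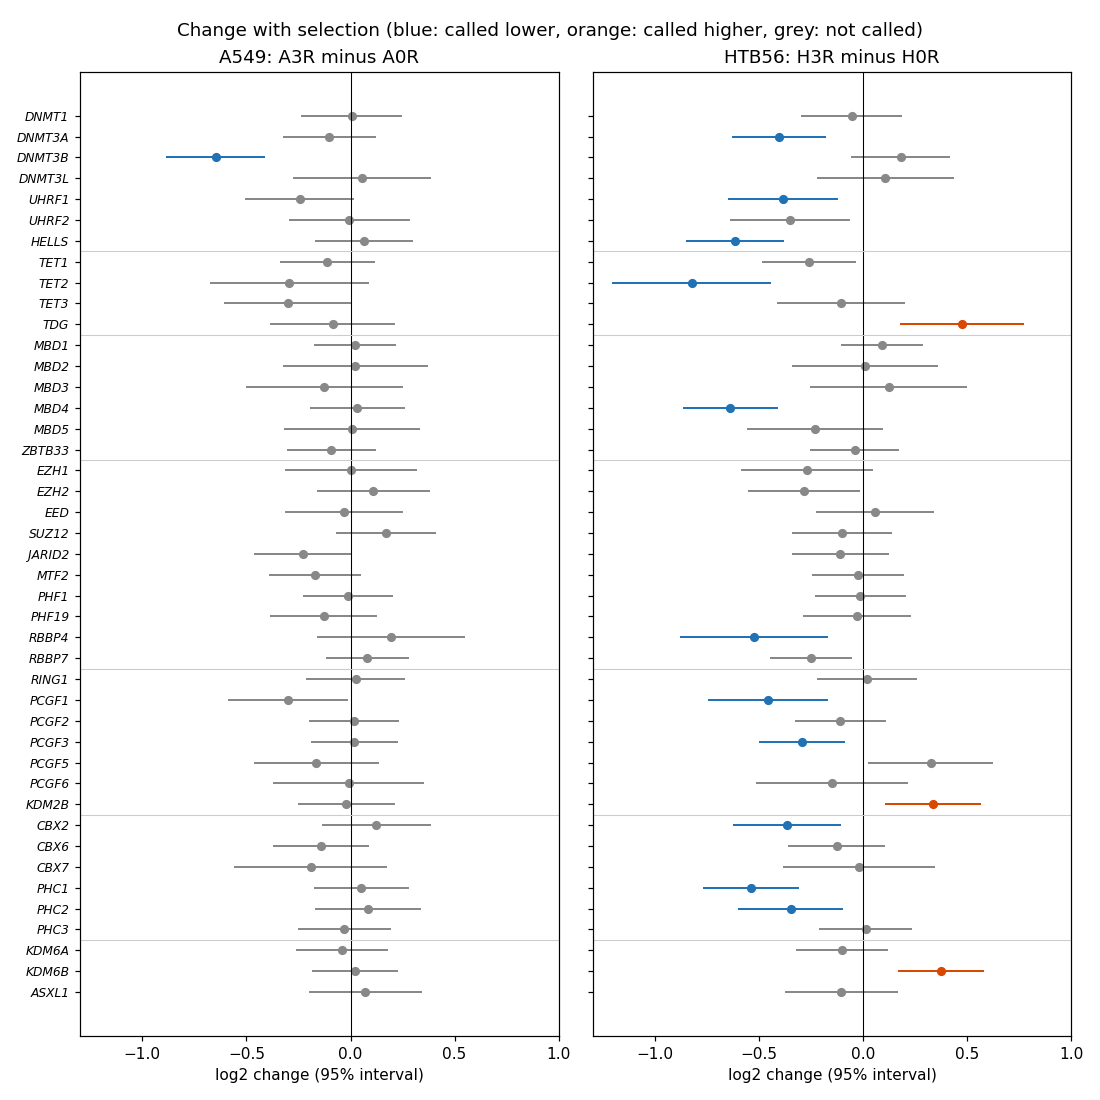
Log2 change with selection for each of the 43 members, A3R minus A0R on the left and H3R minus H0R on the right, grouped by role, with the 95% interval from limma as a line. DNMT3B is the 1 coloured gene in A549, while 11 genes in blue and 3 in orange were called in HTB56.

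In HTB56 selection, read as H3R against H0R, 14 of 43 members were called. The 11 that fell were DNMT3A, UHRF1, HELLS, TET2, MBD4, RBBP4, PCGF1, PCGF3, CBX2, PHC1 and PHC2. The 3 that rose were TDG, KDM2B and KDM6B. The members called were 32.6% of the list, beside 19.5% of all genes called in HTB56. Those called lower were 25.6%, beside 10.9% of all genes (8.57% of all were higher). Members were chosen with earlier results of these data known, so these shares are no test of the machinery. A stricter filter kept only genes above the array median on at least 3 arrays. Under it 15 of 40 members were called, beside 27.2% of 12068 genes. The median change was -0.11 over the members and 0.02 over all genes. The arrays of H0R and H3R did not overlap for 23 members, and for 34.3% of all genes. The count fell to 7 without H0R replicate 1, H3R replicate 1 or H3R replicate 2, and to 9 without H0R replicate 2 or H3R replicate 3, where 14.7% to 16.2% of all genes were called. HELLS, TET2, MBD4, PHC1 and KDM6B were called under all 21 alternatives.

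Values of other cell types and of the cell cycle moved in the same comparison. Of the 5 tested fibroblast markers COL1A1, COL3A1 and LUM were called higher in H3R, and the mean of the list was 5.17 to 5.46 in H0R and 5.94 to 6.13 in H3R. DCN, a defining fibroblast gene, was above the filter on 0 of 12 arrays. Of the leukocyte markers 2 of 5 tested were higher (CD68 and LYZ), with list means of 4.74 to 4.89 in H0R and 5.24 to 5.30 in H3R, and PTPRC, which defines leukocytes, was above the filter on 0 arrays. Limma called 0 of 4 endothelial markers, and 0 had an unadjusted p below 0.05. Of 35 cell cycle genes 8 were called lower and 1 higher, with list means of 9.78 to 9.81 in H0R and 9.61 to 9.74 in H3R. The 8 called lower were MCM2, MCM3, MCM4, MCM5, MCM6, CCNA2, RRM2 and TK1, with changes from -0.71 (MCM2) to -0.34 (MCM4). The 1 called higher was the proliferation marker MKI67, which rose from 8.39 to 9.24 (0.85, SE 0.14). The replication clamp gene PCNA changed by 0.29 (adjusted p = 0.0609) and E2F1 by -0.38 (0.241). The part of these in the members' changes was not tested.

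Among the writers of DNA methylation, HELLS fell most in HTB56. HELLS read 9.54, 9.57 and 9.38 in H0R and 8.98, 8.88 and 8.78 in H3R, without overlap, a fall of 0.62 (1.53-fold, SE 0.11, adjusted p = 0.000817). In A549 it read 9.12, 9.35 and 9.22 unselected and 9.42, 9.30 and 9.17 selected. The H3R arrays were therefore the lowest of the 12. DNMT3A read 7.21, 7.17 and 7.35 in H0R and 6.90, 6.86 and 6.77 in H3R and fell by 0.40 (SE 0.10, adjusted p = 0.0117). That call was lost without H0R replicate 3 (0.0522). UHRF1 read 9.75, 9.53 and 9.49 in H0R and 9.27, 9.27 and 9.07 in H3R and fell by 0.39 (SE 0.12, adjusted p = 0.0358). The UHRF1 call was lost without any 1 of the 6 HTB56 arrays except H0R replicate 3 (0.0573 to 0.16), and a dimmer UHRF1 probe set changed by 0.17 the other way (adjusted p over all probe sets 0.464). With the probe sets of a gene averaged, UHRF1 was not called (0.612).

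DNMT1 and DNMT3B did not fall with them. DNMT1 read 9.88, 9.85 and 9.76 in H0R and 9.85, 9.82 and 9.66 in H3R, a change of -0.06 with an interval of -0.29 to 0.18. DNMT3B read 5.39, 5.47 and 5.23 in H0R and 5.57, 5.58 and 5.48 in H3R, higher on every selected array but not called (0.18, adjusted p = 0.32). UHRF2, the relative of UHRF1, was lower in 3 of 3 pairs (-0.35, adjusted p = 0.0845), and a fit blocked on replicate number called it (0.00224). DNMT3L, the cofactor without catalytic activity, read between 4.20 and 4.85 on all 12 arrays and changed by 0.11 (0.737).

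The genes that remove methylated or oxidised bases went both ways in HTB56. TET2, an oxidase of methylcytosine often mutated in blood cancers, read 8.22, 8.09 and 8.15 in H0R and 7.50, 7.42 and 7.05 in H3R. It fell by 0.83 (1.77-fold, SE 0.18, adjusted p = 0.00375), the largest change of any member with selection. H3R replicates 1 and 2 lay above all 6 A549 arrays, and replicate 3 lay among them. Its other probe set fell too, by 0.64. TDG, the glycosylase that acts after the TET enzymes, read 6.48, 6.09 and 6.54 in H0R and 6.98, 6.93 and 6.64 in H3R and rose by 0.48 (SE 0.14, adjusted p = 0.0241). The TDG call was lost without H0R replicate 2, H3R replicate 1 or H3R replicate 2 (0.09 to 0.128). TET1 read 5.15, 5.15 and 4.92 in H0R and 4.91, 4.77 and 4.76 in H3R (-0.26, adjusted p = 0.102), and TET3 6.79, 6.80 and 6.74 against 6.81, 6.73 and 6.47 (-0.11, 0.709).

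MBD4, which binds methylated CpG sites and repairs the mismatches left when methylcytosine deaminates, was the 1 gene called in HTB56 among the 5 MBD family members and ZBTB33. It read 8.26, 8.28 and 8.50 in H0R and 7.70, 7.62 and 7.80 in H3R and fell by 0.64 (1.56-fold, SE 0.10, adjusted p = 0.000485). The 6 A549 arrays lay between 8.18 and 8.42, above all 3 H3R arrays. The other 5 of these genes had changes between -0.23 (MBD5) and 0.12 (MBD3), and none was called, with adjusted p of 0.361 and 0.733 for these and 0.597 to 0.985 for MBD1, MBD2 and ZBTB33. IFT122, a gene of ciliary transport, starts 276 bases from MBD4 on the opposite strand, just beyond the sequence shown, and fell by 0.78 in HTB56 (adjusted p = 0.000204) and by 0.09 in A549 (0.916).

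**Figure D2:**
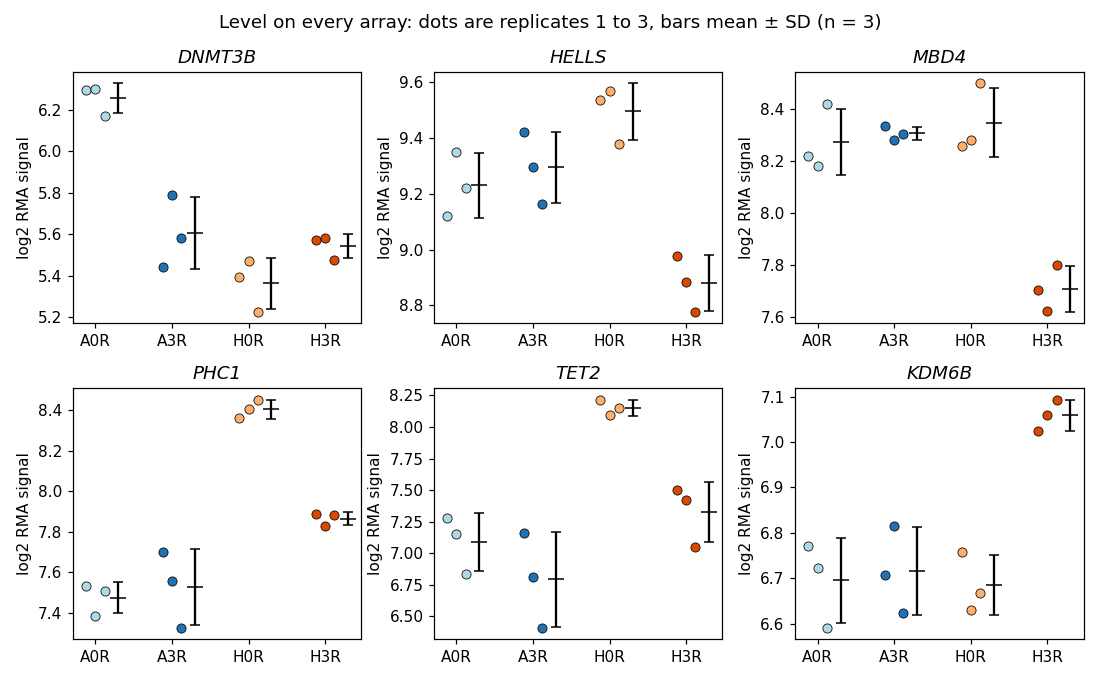
Log2 RMA signal of 6 members on each of the 12 arrays, with dots for replicates 1 to 3 from left to right in each group and bars for the mean ± SD (n = 3). DNMT3B is high in A0R (6.17 to 6.30) and lower in the other 3 groups, while HELLS and MBD4 are lowest and KDM6B highest in H3R.

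Of 10 PRC2 genes RBBP4, a histone-binding subunit shared with other chromatin complexes, was the 1 called in HTB56. It read 10.97, 10.91 and 11.29 in H0R and 10.52, 10.33 and 10.75 in H3R and fell by 0.52 (SE 0.16, adjusted p = 0.0356), a call lost without H0R replicate 1 or 3 or H3R replicate 1 or 2 (0.0596 to 0.155). RefSeq lists 7 pseudogenes named after RBBP4 and at least 1 after each of DNMT3A, UHRF2, TET1, TDG, EED, SUZ12 and PHC1, so signals of these 8 members are uncertain where probes share sequence with such copies. EZH2, the catalytic subunit of dividing cells, read 9.70, 9.70 and 10.07 in H0R and 9.52, 9.43 and 9.68 in H3R. Its change of -0.28 was not called (adjusted p = 0.141), but was with the replicate block (0.0239), as was that of RBBP7 (-0.25, 0.0667 without and 0.0156 with the block). EED read 8.60, 8.58 and 8.86 against 8.67, 8.73 and 8.80 (0.06, interval -0.22 to 0.34), and SUZ12 10.31, 10.31 and 10.52 against 10.27, 10.17 and 10.39 (-0.10, interval -0.34 to 0.13). EZH1, JARID2, MTF2, PHF1 and PHF19 changed by -0.27 to -0.01, and none was called (adjusted p 0.251 to 0.96).

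Of the 6 CBX and PHC genes of PRC1, 3 fell in HTB56 and the others were not called. PHC1, a subunit of canonical PRC1 that joins complexes into chains, read 8.36, 8.40 and 8.45 in H0R and 7.89, 7.83 and 7.88 in H3R. The fall was 0.54 (1.45-fold, SE 0.10, adjusted p = 0.00191), and the 6 A549 arrays lay lower still, between 7.32 and 7.70. A further PHC1 probe set of nearly the same brightness fell by 0.53. Its values nearly repeat those of the first, and whether it reads separate sequence was not checked, so it is no independent support. PHC2 read 9.07, 9.26 and 8.91 in H0R and 8.82, 8.77 and 8.59 in H3R and fell by 0.35 (SE 0.12, adjusted p = 0.0481). The call was lost without A0R replicate 1, any A3R array, H0R replicate 1 or 2 or any H3R array (0.0516 to 0.211), with no filter (0.0506) and with only the HTB56 arrays in the fit (0.0682). The reader CBX2 read 7.11, 7.30 and 6.92 in H0R and 6.94, 6.75 and 6.53 in H3R and fell by 0.37 (SE 0.12, adjusted p = 0.0442), with overlap of H0R replicate 3 and H3R replicate 1. That call was lost without any A0R array, A3R replicate 1 or 2, H0R replicate 1 or 2, or H3R replicate 2 or 3 (0.051 to 0.2), and with only the HTB56 arrays in the fit (0.091). PHC3, CBX6 and CBX7 changed by 0.01, -0.13 and -0.02 (adjusted p 0.965, 0.506 and 0.964).

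The variant PRC1 genes PCGF1 and KDM2B encode partners of 1 complex, in which KDM2B binds unmethylated CpG islands, and they moved oppositely. PCGF1 read 7.52, 7.42 and 7.51 in H0R and 6.80, 7.20 and 7.08 in H3R and fell by 0.46 (SE 0.13, adjusted p = 0.0234), a call lost without H0R replicate 1 or 3 or H3R replicate 1 (0.0631 to 0.115). KDM2B read 7.11, 6.97 and 7.17 in H0R and 7.40, 7.33 and 7.51 in H3R and rose by 0.34 (SE 0.11, adjusted p = 0.0388). It lost its call without A3R replicate 2 or any HTB56 array but H0R replicate 3 (0.0511 to 0.157), and with each array centred on its median (0.0968). PCGF3 read 7.58, 7.47 and 7.66 in H0R and 7.30, 7.27 and 7.25 in H3R and fell by 0.29 (SE 0.09, adjusted p = 0.0409), a call lost without A3R replicate 2 or any HTB56 array but H0R replicate 2 (0.0527 to 0.138) and with only the HTB56 arrays in the fit (0.0577). PCGF5, another PRC1 partner, was higher on all 3 selected arrays but not called (0.32, adjusted p = 0.131). RING1, PCGF2 and PCGF6 changed by 0.02, -0.11 and -0.15 (0.947, 0.551 and 0.646).

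KDM6B, a demethylase of the PRC2 mark that many stimuli induce, read 6.76, 6.63 and 6.67 in H0R and 7.02, 7.06 and 7.09 in H3R. It rose by 0.37 (SE 0.09, adjusted p = 0.0112), and the 6 A549 arrays lay between 6.59 and 6.82, below all H3R arrays. The demethylase KDM6A and ASXL1, the partner of the histone deubiquitinase BAP1, changed by -0.10 and -0.11 and were not called (0.6 and 0.672).

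Whether selection acted differently in the lines was tested as the difference of the changes, HTB56 minus A549. Limma called 4 of 43 members (9.3%, beside 11.8% of all genes), 1 higher and 3 lower (5.22% and 6.58% of all genes). The count was 6 without H3R replicate 3 (10.5% of all genes called) and 7 with array weights (16.2%). DNMT3B differed by 0.83 (SE 0.15, adjusted p = 0.0025), as it fell in A549 and not in HTB56. Its mean was already low in H0R (5.36), below the array medians of 5.55 to 5.67, against 6.25 in A0R. The part of this low start in the difference was not tested. HELLS differed by -0.68 (SE 0.15, 0.00844), MBD4 by -0.67 (SE 0.15, 0.00753) and PHC1 by -0.59 (SE 0.15, 0.0171). These 4 differences were called under all alternatives run. The difference for TET2 was -0.53 (limma adjusted p = 0.212) and for KDM6B 0.35 (0.113). In the fit blocked on replicate number these adjusted p were 0.0368 and 0.0458. Whether TET2 and KDM6B are called as differing between the lines thus depends on the block. Their calls in HTB56 and not in A549 do not by themselves show it. With the replicate number as a block 13 members were called, 3 higher and 10 lower, beside 20.4% of all genes. The 9 added were UHRF2, TET2, EZH2, RBBP4, RBBP7, CBX2 and PHC2 on the lower side and KDM2B and KDM6B on the higher, with adjusted p from 0.00392 to 0.0499. Both lines had a change of the same sign for 21 of 43 members (48.8%), beside 50.4% of all genes.

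The lines differed from each other far more than either did from its selected form. Between H0R and A0R 23 of 43 members were called, 16 higher and 7 lower in HTB56 (45.2% of all genes were called, 24.9% higher and 20.3% lower). Between H3R and A3R 27 were called, 17 higher and 10 lower (44.6% of all genes, 24.9% higher and 19.7% lower). Under the stricter filter 26 of 40 members were called in each comparison. The shares of all genes were then 58.5% unselected and 57.8% selected. These comparisons use different arrays, and 19 members were called in both, all with the same sign, while 4 were called only in the unselected and 8 only in the selected pair, and 12 in neither. Of all genes, 5642 were called in both and 5496 of these had the same sign, so this agreement is no trait of the members. With the replicate block, whose values are given here as adjusted p without and with it, 4 members were added between the unselected lines, all higher in HTB56. They were UHRF2 (0.144 and 0.00727), HELLS (0.0573 and 0.0212), PHF19 (0.0604 and 0.00844) and RING1 (0.0676 and 0.0227). Between the selected lines the block added EZH2 (0.133 and 0.0276), EED (0.163 and 0.029) and RING1 (0.0742 and 0.0255), also higher in HTB56. All genes called under the block were 53.7% and 52.7%. The arrays of the lines did not overlap for 26 members unselected (53.2% of all genes) and 30 selected (51.6%). In the order of the unselected comparison, PHC2, ASXL1, TET2, MTF2, PHC1 and DNMT1 were the members most above A549, and PCGF5, DNMT3B, PHC3, RBBP7, PCGF1 and SUZ12 the most below.

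**Figure D3:**
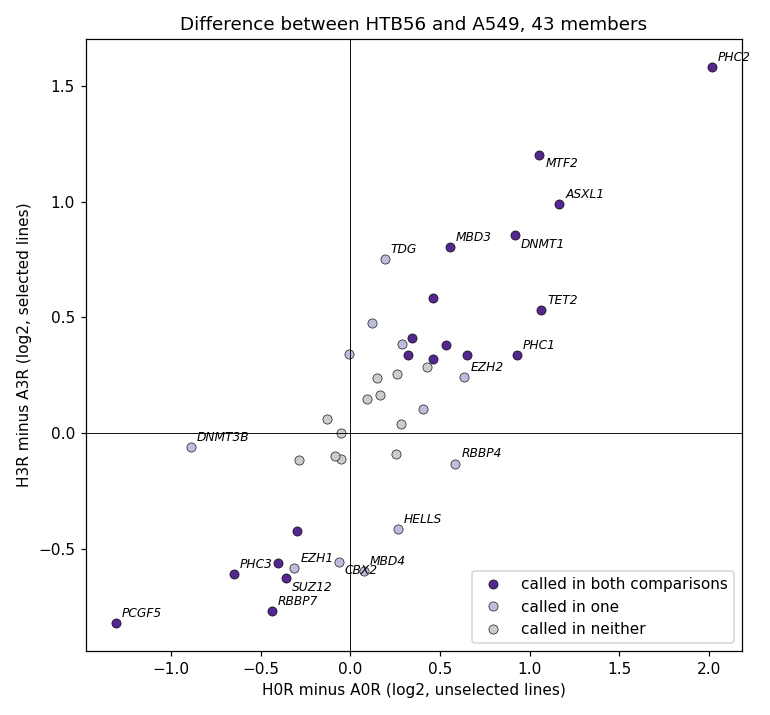
Log2 difference between HTB56 and A549 for the 43 members, between the unselected lines on the horizontal axis and the selected lines on the vertical. PHC2 lies at the upper right (2.02 and 1.58) and PCGF5 at the lower left (-1.31 and -0.82), while DNMT3B lies near 0 in the selected lines.

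PHC2 had the largest difference of any member. It read 7.02, 7.23 and 6.94 in A0R and 7.18, 7.17 and 7.09 in A3R, against 8.59 to 9.26 on the 6 HTB56 arrays, a difference of 2.02 between the unselected lines (4.05-fold, SE 0.12, adjusted p = 2.17e-09) and 1.58 between the selected ones. ASXL1 read 8.02 to 8.35 on the A549 arrays and 9.03 to 9.43 on the HTB56 arrays (1.17, SE 0.12, adjusted p = 1.99e-06, and 0.99 selected). MTF2, a PRC2 partner that binds CpG-rich DNA, read 8.70 to 8.96 and 9.79 to 10.07 (1.06, SE 0.10, and 1.20). For these 3 genes the arrays of the 2 lines did not overlap. MBD3, a subunit of a deacetylase complex, was among the 6 most above A549 in the selected lines (0.80, SE 0.17, adjusted p = 0.00147) and stood at 0.55 in the unselected, a call lost without A0R replicate 3 or H0R replicate 1 or 2 (0.0665 to 0.0809). TDG was likewise among them, at 0.75 in the selected lines (SE 0.14, 0.000369) and 0.19 in the unselected (0.292).

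DNMT1 and DNMT3A stood above A549 in HTB56, and DNMT3B below. DNMT1 was higher by 0.92 (SE 0.11, adjusted p = 7.21e-06) in the unselected and 0.85 in the selected lines, DNMT3A by 0.41 (SE 0.10, 0.00445) and 0.10 (0.458). DNMT3B was lower by 0.89 (SE 0.11, adjusted p = 7.7e-06) in unselected HTB56, and the difference between the selected lines was -0.06 (SE 0.11, adjusted p = 0.69). The TET genes also split, with TET2 higher by 1.06 (SE 0.18, 0.000145), TET1 by 0.53 (SE 0.10, 0.000626) and TET3 at -0.13 (0.493). Between the selected lines TET2 stood at 0.53 (0.0225), a call lost without A3R replicate 3 or H3R replicate 1 or 2 (0.0761 to 0.118).

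In PRC2 EZH2 was higher in unselected HTB56 by 0.64 (SE 0.12, adjusted p = 0.000607), while EZH1, its counterpart in resting cells, was at -0.31 (0.0987) and, between the selected lines, lower by 0.59 (0.00412). RBBP4 was higher by 0.59 (SE 0.16, 0.00839) and RBBP7, the other histone chaperone of this position, lower by 0.44 (SE 0.09, 0.000946). RBBP7 read 10.82 to 11.07 on the A549 arrays and 10.15 to 10.48 on those of HTB56. After selection RBBP4 was at -0.13 (0.564) and RBBP7 at -0.77 (5.65e-06). SUZ12, which has no paralogue among the members, was lower by 0.36 (0.0143) and 0.63 (0.00024). The unselected SUZ12 call was lost without A0R replicate 3 or H0R replicate 1 or 2 (0.0546 to 0.0693). EED stood at 0.15 in the unselected lines (adjusted p = 0.388). Between the selected lines it stood at 0.24, higher in 3 of 3 pairs and without overlap of arrays, and was called with the replicate block (0.029) and not without it (0.163).

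In PRC1 PCGF5 was lower in unselected HTB56 by 1.31 (2.48-fold, SE 0.14, adjusted p = 1.72e-06), at 6.94 to 7.35 on the HTB56 arrays and 7.95 to 8.64 on those of A549. PCGF3, which can take its place, was higher by 0.65 (SE 0.09, 4.3e-05). PCGF1 was lower by 0.40 (0.021), a call lost without A0R replicate 1 or H0R replicate 2 (0.0692 to 0.106). PHC1 and PHC2 were higher and PHC3 lower by 0.65 (SE 0.10, 9.33e-05). A dim further probe set of PHC3 was higher by 0.57, so that the call was lost when the probe sets of a gene were averaged (0.808). PHC1 stood at 0.93 (SE 0.10, 3.38e-06) in the unselected and 0.34 (0.0161) in the selected lines, where the call was lost without A3R replicate 3 (0.085) and after cyclic loess (0.0691). HELLS, MBD4 and CBX2 were called lower in HTB56 in the selected comparison (-0.42, -0.60 and -0.56) and stood at 0.26, 0.07 and -0.07 in the unselected, none called there (adjusted p 0.0573, 0.609 and 0.698) unless the replicate block was used, which called HELLS (0.0212).

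**Figure D4:**
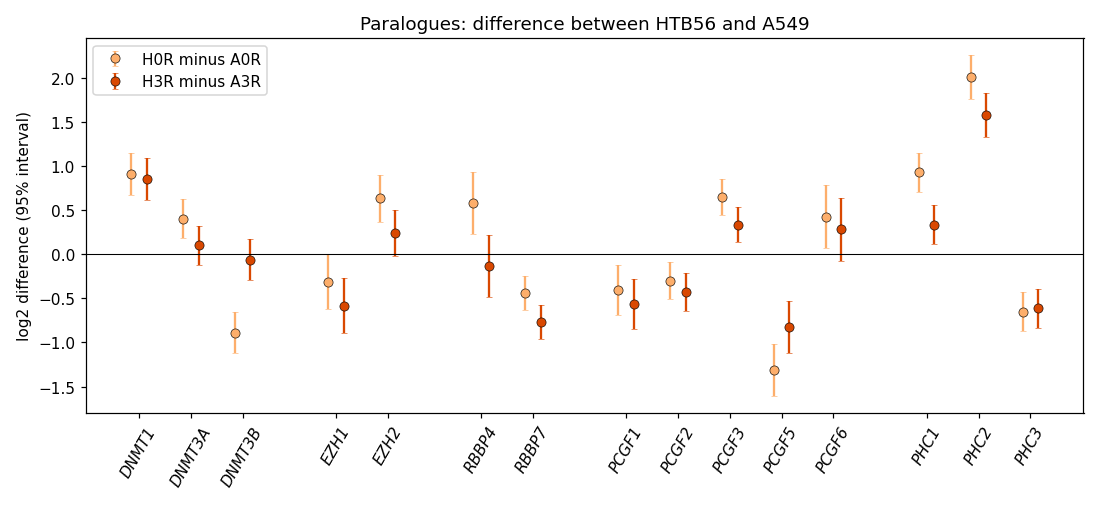
Log2 difference between HTB56 and A549, with 95% intervals from limma, for 5 families of paralogues, between the unselected lines in light and the selected lines in dark orange. Between the unselected lines, members of each of the 5 families lie on both sides of 0, though EZH1 (-0.31) was not called. DNMT3B moves from -0.89 to -0.06.

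Other genes of these pathways were read from lists of genes that are no members. Their counts stand beside 1.75% of all genes called in A549 and 19.5% in HTB56 (8.57% higher and 10.9% lower). Of 40 further DNA methylation genes limma called 1 in A549, CXXC5, a CpG-binding zinc finger gene, which fell by 0.56 (SE 0.09, adjusted p = 0.00511). In HTB56 it called 4 higher and 7 lower, and CXXC5 fell by 2.14 (SE 0.09, 1.66e-09), from 10.38 to 8.24. The isocitrate dehydrogenase gene IDH1, whose product supplies the cosubstrate of TET enzymes, fell by 0.71 in HTB56 (SE 0.10, 0.000113), while GADD45A rose by 0.46 and the histone methyltransferase genes SUV39H2 and EHMT1 by 0.43 and 0.36. Of 39 further Polycomb genes SFMBT2 rose in A549 by 0.78 (SE 0.15, 0.0155), and in HTB56 2 were higher, WDR5 among them (0.51), and 4 lower, led by AUTS2 (-0.91) and SCML2 (-0.77). Of 21 Trithorax genes, the opponents of Polycomb, limma called 0 in A549, where 1 had an unadjusted p below 0.05, and 2 higher and 3 lower in HTB56.

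Between the unselected lines the largest differences in these lists were those of SMARCA4, a remodeller ATPase known to be lost in A549, at 6.34 in A0R and 9.82 in H0R (3.48, SE 0.13, adjusted p = 2.57e-11), and L3MBTL3 (2.17), AUTS2 (1.62) and SHMT2 (1.35). Lower in HTB56 were ZBTB38, a reader of methylated DNA (-1.98), IDH1 (-1.68), SCML2 (-1.25) and TRIM37 (-1.01). Between the selected lines these 8 differences were 3.57, 1.84, 0.73, 1.27, -2.24, -2.08, -2.08 and -1.14 in the same order.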

How the data were processed

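Values are the deposited log2 signals, which the authors computed by RMA. The software was Expression Console per the submitters' processing notes. Its version is not given in the sources read. RMA subtracts background, makes array distributions alike and summarises probes, so changes of dim genes are compressed and a shift of all mRNA would be removed. Of 33297 probe sets, 19460 had 1 gene symbol in the platform annotation, 1754 several and 12083 none listed. A gene's brightest probe set was kept where it exceeded the array's 20th percentile (3.48 on average) on at least 3 of 12 arrays.

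Group means over all 12 arrays were modelled in R 4.3.3 by limma 3.58.1 (lmFit and eBayes, two-sided, Benjamini-Hochberg over 16939 genes) and checked on simulated data. Tables and figures used Python 3.11.15. Members called in either selection comparison or their difference, the central enzymes, and the 6 largest line differences each way are given in full. Of the other genes, up to 4 called each way are named. Members and lists were chosen with earlier results of these data known.

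Replicate numbers are shared by the groups. Deviations from group means correlated at 0.16 to 0.549 between arrays of the same number and at -0.417 to 0.205 otherwise, and each of the 12 arrays was closest to one of its own number. By these data the numbers pair the arrays, and the fit with that block is given where it changes a call. SEs, intervals and all p-values not named as blocked come from fits without it. The number of arrays limits the precision. Alternatives were the filter, averaging of probe sets, median centring, cyclic loess, a fit restricted to the groups compared, the replicate block, trend and robust eBayes, array weights and leaving out each array.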

Additional observations from a re-analysis of the deposited data

Results flagged for a closer look

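The change with selection differed between HTB56 and A549 by a test of the difference itself for 4 members. That count is from the fit without the replicate block, which called 11.8% of all genes. With the block 13 members were called, these 4 among them, beside 20.4% of all genes. For DNMT3B the difference, HTB56 minus A549, was 0.83 on the log2 scale, with changes of 0.18 and -0.65 in the lines. The unselected lines started from unlike levels of DNMT3B, 5.36 in H0R and 6.25 in A0R. HELLS differed by -0.68 (-0.62 and 0.06), MBD4 by -0.67 (-0.64 and 0.03) and PHC1 by -0.59 (-0.54 and 0.05). Same-numbered pairs of arrays went the same way in 3 of 3 cases for each of these genes in HTB56, and for DNMT3B in A549. No cause was tested.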

How the results depend on the processing

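The count of members called was 14 in HTB56 and ran from 7 to 13 when 1 array was left out. Of all genes, 14.7% to 15.8% were called where it was 7 and 19.1% to 20.3% where it was 13. For the difference of the changes it was 4, from 4 to 6 with 1 array left out, 7 with array weights and 13 with the replicate block. Under the block all genes called rose from 11.8% to 20.4%. The cause was not tested for either setting. The block kept all 14 calls in HTB56 and added UHRF2, EZH2 and RBBP7, where all genes called rose from 19.5% to 28%. It kept the 1 call in A549, where the share of all genes called rose from 1.75% to 3.32%, and the 23 and 27 of the line comparisons, which became 27 and 30 (53.7% and 52.7% of all genes). The HTB56 calls of DNMT3A, UHRF1, TDG, RBBP4, PCGF1, PCGF3, KDM2B, CBX2 and PHC2 were each lost without at least 1 array. The fits that left out an array had no block. With the block and all arrays, limma adjusted p for these calls ran from 0.00192 (RBBP4) to 0.0223 (PCGF1). In A549 the count was 1 under every alternative. Between the unselected lines it was 23, from 19 (39.6% and 40.9% of all genes) to 26 (42.9%) with 1 array left out. Between the selected lines it was 27, from 22 (41.2%) to 28 (44.7%). Over 95 values of named members, 1971 recomputed values held 66 lost calls, 22 added calls and 0 calls of opposite sign. For 26 values uncalled under both settings the sign differed. TET1, DNMT3L and CBX7 were the dimmest members, and the stricter filter left 40 of the 43 members. TET1 was nonetheless called between the lines.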

Other observations

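Neighbouring genes on the chromosome were read beside 5 members, 3 tested genes on each side in RefSeq order, chosen after the values were seen. Around DNMT3B on chromosome 20 and HELLS on chromosome 10, limma called 0 of 6 neighbours in either line. COMMD7, next to DNMT3B, changed by -0.29 in A549 (adjusted p = 0.328). Around MBD4 on chromosome 3 the neighbours IFT122 (-0.78) and PLXND1 (-0.66) were called lower in HTB56 and 0 in A549. Around PHC1 on chromosome 12 RIMKLB fell by 2.56 in HTB56 (2.55e-07) and M6PR, which encodes a lysosomal sorting receptor, rose by 0.46 (0.00371). Around TET2 on chromosome 4, 3 of 6 neighbours were called lower in HTB56, BDH2 (-0.86), CXXC4 (-0.64) and PPA2 (-0.35), while CENPE, INTS12 and GSTCD were not called (adjusted p 0.276, 0.919 and 0.0781).

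Of the 6 members with more than 1 probe set, TET2, PHC1 and RING1 had probe sets with similar changes in HTB56 (-0.83 and -0.64, -0.54 and -0.53, 0.02 and -0.01). Whether the probe sets of a gene read separate sequence, or only the gene named, was not checked. For PHC3 they differed, 0.01 for the brighter and -0.67 for the dim one (adjusted p over all probe sets 0.968 and 0.00248). For UHRF1 they were -0.39 and 0.17, and for PCGF6 -0.15 and 0.07.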
